A study of Cucumis sativus with 12 samples.

Results

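The jasmonate and oxylipin genes of cucumber leaf were taken as all genes whose deposited description names a TIFY protein, jasmonate, a lipoxygenase, linoleate, allene oxide, oxophytodienoate, coronatine, MYC2 or MYC4, a hydroperoxide lyase or a phospholipase A1. The deposited table holds 24317 genes, of which 69 matched, and 43 of these reached 1 FPKM (a level scaled to transcript length and library size) in at least 3 of 12 libraries. Among all genes, 16432 passed the same filter and were tested. The leaves came from seedlings of Cucumis sativus at the third-true-leaf stage. Every group received a leaf spray of COS (chitosan oligosaccharide, a fragment of the polymer chitosan) at 50 mg/L, was kept at 28 °C by day and 18 °C by night for 24 h, and was then moved to 12 °C by day and 6 °C by night. RNA was sequenced from fully expanded leaves after 0, 3, 12 and 24 h of cold, with 3 libraries at each duration, and the 0 h leaves had no cold. Seedlings sprayed with water were not analysed here. Time in the cold, time since the spray and time of day cannot be told apart. Whether the 3 libraries of a duration are separate plants is not stated, and the p-values therefore reflect differences between libraries that could be technical in part.

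Jasmonates are hormones made from the fatty acids of chloroplast membranes. Lipases free linolenic acid, 13-lipoxygenases add oxygen to it, and allene oxide synthase and allene oxide cyclase turn the product into 12-oxophytodienoic acid (OPDA), which is reduced and shortened in the peroxisome to jasmonic acid. Hydroperoxide lyase draws on the same hydroperoxides to make the volatile aldehydes of damaged green leaves, and 9-lipoxygenases open a separate branch of oxylipins. The isoleucine conjugate of jasmonic acid joins the F-box protein COI1 to JAZ repressors, which belong to the TIFY family, and their breakdown frees MYC transcription factors to act; in Arabidopsis many JAZ genes are themselves switched on by MYC2 and its relatives.

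The 69 matched genes fell into 11 roles. There were 8 phospholipase A1 genes (5 passed the filter), 12 9S-lipoxygenases (5 passed), 18 13S- and other lipoxygenases (6 passed), 3 allene oxide synthases (2 passed), 2 allene oxide cyclases, 2 hydroperoxide lyases, 6 oxophytodienoate reductases, 1 jasmonate methyltransferase, 1 COI1, 13 TIFY genes (11 passed) and 3 MYC2 genes (2 passed). Where no number is given, every gene of the role passed. Of the 26 genes that did not pass, 11 were listed at 0 in all 12 libraries, 11 stayed below 1 FPKM in every library, and 4 reached 1 FPKM in 1 or 2 libraries. These 4, just outside the filter, were 9S-lipoxygenase 5 CsaV3_2G005360 (at most 1.03 FPKM), lipoxygenase CsaV3_2G023220 (2.35), phospholipase A1-IIgamma CsaV3_6G037580 (1.36) and allene oxide synthase-like CsaV3_7G010170 (2.06). Most of the genes at 0 throughout were lipoxygenases in tandem runs. A run of 12 lipoxygenases on chromosome 4 (13850327 to 13965714, coordinates as deposited, genome build not given in the sources used here) held 3 that passed and 5 at 0 throughout. A run of 10 on chromosome 2 (2930091 to 3106645) held 4 that passed and 3 at 0 throughout. The passing members included 4 that reached 1 FPKM in only 3 or 4 libraries (CsaV3_7G027570, CsaV3_6G051810, CsaV3_2G006390 and CsaV3_4G023830), and 31 that reached it in all 12. All but CsaV3_2G006390 of these 4 reached it in every library of the group where the gene was highest, so their calls as higher in that group follow in part from the filter. Some further members reached 1 FPKM in cold libraries only, among them CsaV3_1G032370 (6 libraries), CsaV3_5G023060 (7), CsaV3_5G017240 (5) and CsaV3_3G045390 (5). Their calls as higher than at 0 h may also follow in part from the filter, and the counts of rises below include them. Among the 43 members, 21 carried the KEGG term for alpha-linolenic acid metabolism, a term held by 51 tested genes, and 5 carried no KEGG term.

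The members moved in both directions at every duration, and from 12 h more rose than fell. A gene was called changed when edgeR's quasi-likelihood test gave a Benjamini-Hochberg adjusted p below 0.05 over all genes tested. After 3 h of cold 12 members rose and 9 fell against 0 h, where 57.7% of all genes tested were called (29.4% higher and 28.3% lower). After 12 h 23 rose and 12 fell, against 67.4% of all genes called (34.4% higher and 33.0% lower). After 24 h 22 rose and 15 fell, against 74.2% of all genes called (36.2% higher and 37.9% lower). Of the members, 27.9%, 53.5% and 51.2% rose and 20.9%, 27.9% and 34.9% fell at 3, 12 and 24 h. Since most genes tested were called in each comparison, a call alone does not set a member apart. The median log2 fold change of the members was 0.16, 0.50 and 0.69 at 3, 12 and 24 h, beside 0.001, 0.003 and -0.035 for all genes tested. These comparisons share the 0 h libraries and are not independent of each other. Over the 3 cold durations together 41 of 43 members changed, where 89.3% of all genes did. In mean level 19 members were highest at 24 h (26.7% of all genes were), and 17 were lowest at 0 h (29.8% of all genes were). These counts and the medians include the members that reached 1 FPKM in cold libraries only. Both may therefore follow in part from the filter, which all genes tested also passed.

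**Figure D1:**
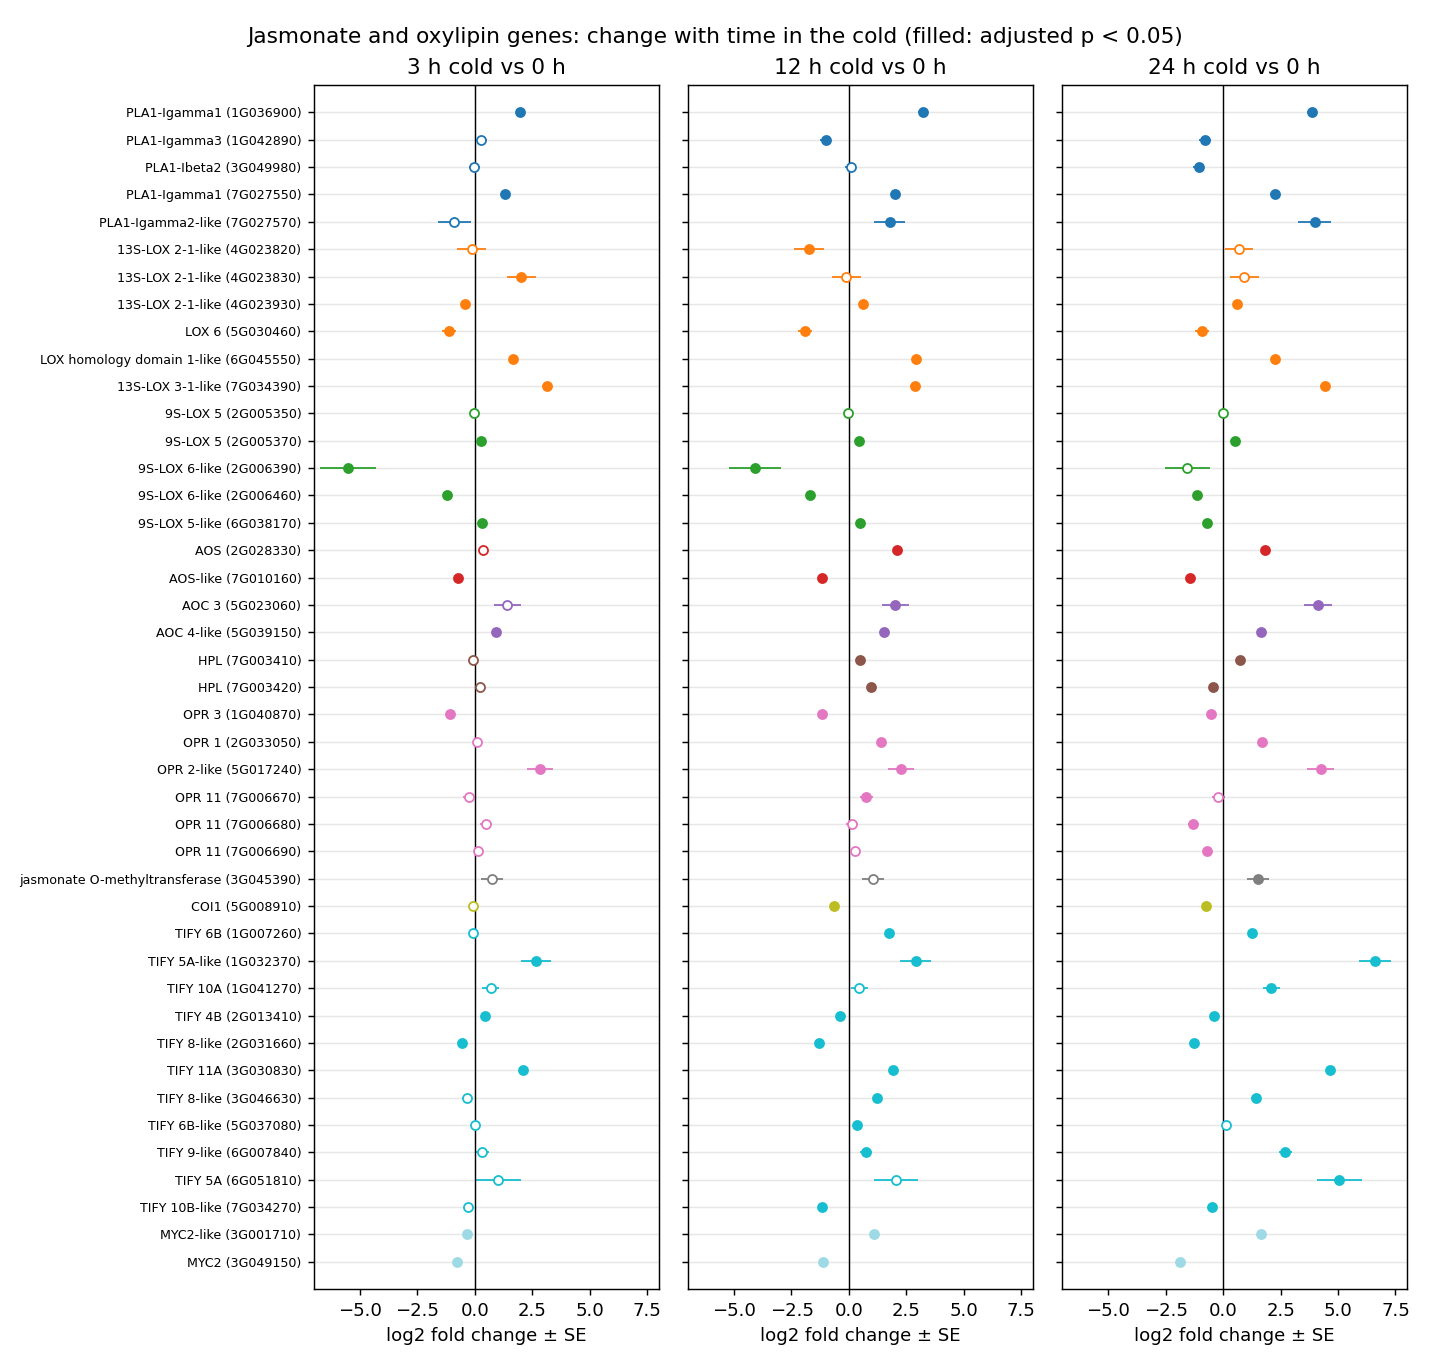
Log2 fold change ± SE of each of the 43 members after 3, 12 and 24 h of cold against 0 h, grouped by role and coloured by role, with filled points for an adjusted p below 0.05. Points lie on both sides of 0 within most roles, and the highest value is 6.62 for TIFY 5A-like at 24 h.

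The summed FPKM of the 43 members was 705 to 754 in the 0 h libraries, 710 to 750 at 3 h, 974 to 1040 at 12 h and 1220 to 1400 at 24 h. The 12 h and 24 h libraries lay above all 0 h and 3 h libraries in this sum. Abundant genes weigh most in it. Oxophytodienoate reductase 1 CsaV3_2G033050 had a mean of 133 FPKM at 0 h and 414 at 24 h, and TIFY 11A CsaV3_3G030830 had 8.01 and 192. The sum therefore does not describe the typical member, and 15 members were called lower at 24 h. The members held 0.162% to 0.282% of the estimated counts of a library. Library totals were 16.9 to 21.9 M fragments (M, 10 to the power of 6), if 1 fragment is worth the spacing of the lowest counts. Markers of leaf cell types, matched by description, moved as well. Mesophyll markers (23 genes, none at 0 throughout) summed to 32300 to 34100 FPKM at 0 h, 44700 to 45600 at 3 h, 53700 to 58100 at 12 h and 28100 to 32200 at 24 h. Phloem markers (34 genes, 1 at 0 throughout) summed to 814 to 1050 FPKM at 0 h, 745 to 923 at 3 h, 815 to 1040 at 12 h and 1090 to 1880 at 24 h. Epidermis markers (92 genes, 9 at 0 throughout) summed to 5510 to 7360 FPKM at 0 h, 3700 to 4340 at 3 h, 4280 to 4640 at 12 h and 2350 to 3600 at 24 h. Guard cell markers (26 genes, 3 at 0 throughout) summed to 259 to 264 FPKM at 0 h, 202 to 225 at 3 h, 157 to 167 at 12 h and 94.3 to 122 at 24 h. Root markers (35 genes, 1 at 0 throughout) summed to 234 to 249 FPKM at 24 h and 349 to 383 at 0 h, and xylem markers (15 genes, none at 0 throughout) to 7.41 to 8.81 at 24 h and 15.6 to 17.5 at 0 h. Sums and counts of called markers did not always go together. Epidermis sums were lower at 3 h, where 21 of 55 tested markers rose and 11 fell (29.4% and 28.3% of all genes). Guard cell sums were lower at 12 h, where 7 of 14 rose and 5 fell (34.4% and 33.0%). At 24 h falls outnumbered rises in both lists, with 15 rises and 24 falls in epidermis and 3 and 7 in guard cell (36.2% and 37.9%). The part of these shifts in the results was not tested. In whole leaves a change in the number of cells of a type and a change in marker RNA per cell cannot be told apart.

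Phospholipases A1 release fatty acids from chloroplast lipids. Of the 5 members 2 rose and none fell at 3 h, 3 rose and 1 fell at 12 h, and 3 rose and 2 fell at 24 h, beside 57.7%, 67.4% and 74.2% of all genes called in either direction. The most abundant, phospholipase A1-Igamma1 CsaV3_1G036900 (chromosome 1, 22812396 to 22814841), had 1.24, 0.87 and 1.27 FPKM at 0 h, 4.91, 3.76 and 4.57 at 3 h, 9.05, 11.2 and 9.83 at 12 h and 12.5, 18.4 and 16 at 24 h. No library of one duration overlapped those of the next, and the levels stepped up at each time. Its log2 fold change against 0 h was 1.97 ± 0.18 (SE, adjusted p = 2.77e-06 by edgeR) at 3 h, 3.20 ± 0.19 (2.77e-08) at 12 h and 3.85 ± 0.19 (3.78e-09) at 24 h. A second Igamma1 gene, CsaV3_7G027550, rose as well, to 3.30 ± 0.66 FPKM at 24 h against 0.718 ± 0.211 at 0 h (mean ± SD, n = 3 here and below). It overlaps a gene on the opposite strand, so its reads may be shared with that gene. Its neighbour, phospholipase A1-Igamma2-like CsaV3_7G027570, passed the filter through the 24 h libraries alone, with 5.19, 1.78 and 3.52 FPKM there against 0.319, 0.121 and 0.242 at 0 h. The deposited table gives both of these neighbours the KEGG term for arginine biosynthesis, which the lipase name would not lead to. In the opposite direction, Igamma3 CsaV3_1G042890 fell to 1.15 ± 0.115 FPKM at 12 h against 2.41 ± 0.44 at 0 h, and Ibeta2 CsaV3_3G049980 fell to 1.22 ± 0.199 FPKM at 24 h against 2.65 ± 0.544 at 0 h. Single libraries decided some of these calls: CsaV3_7G027570 at 12 h had an adjusted p of 0.108 without 0 h replicate 2, 0.0707 without 0 h replicate 3, 0.0594 without 12 h replicate 1 and 0.0797 without 12 h replicate 2 (and 0.0642 by limma on log2(FPKM + 1), 0.269 on log2(FPKM + 5)), and CsaV3_1G042890 at 24 h had 0.0535 without 0 h replicate 3 and 0.0564 without 24 h replicate 2.

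Among the 13S-lipoxygenases, a gene for a chloroplast enzyme rose by more than 2 units on the log2 scale at every duration. The 13S-lipoxygenase 3-1-like gene CsaV3_7G034390 (chromosome 7, 21744002 to 21748958) had 1.9, 3.19 and 2.43 FPKM at 0 h, 25.5, 19.7 and 21.5 at 3 h, 21.9, 15.4 and 15.8 at 12 h and 58.3, 55.1 and 42.1 at 24 h. Every library after cold was above every 0 h library, the 3 h and 12 h libraries overlapped, and the 24 h libraries were above both. The log2 fold change was 3.14 ± 0.21 (adjusted p = 1.98e-07, edgeR) at 3 h, 2.86 ± 0.21 (1.67e-07) at 12 h and 4.42 ± 0.22 (4.03e-09) at 24 h. It was the largest rise of any member at 3 h. Lipoxygenase 6, in Arabidopsis a further chloroplast 13-lipoxygenase, went the other way: CsaV3_5G030460 fell to 2.42 ± 0.251 FPKM at 3 h, 1.34 ± 0.315 at 12 h and 2.67 ± 1.43 at 24 h, against 5.22 ± 0.5 at 0 h. Its 24 h call had an adjusted p of 0.0615 without 24 h replicate 2 and 0.0583 when only the 24 h and 0 h groups were fitted.

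Of the run of 13S-lipoxygenase 2-1 genes on chromosome 4, CsaV3_4G023930 was the most abundant, at 17.5 ± 0.261 FPKM at 0 h, 13.2 ± 0.536 at 3 h, 26.0 ± 0.707 at 12 h and 25.3 ± 1.83 at 24 h. It fell at 3 h (log2 fold change -0.41 ± 0.06) and rose at 12 h (0.62 ± 0.06) and 24 h (0.59 ± 0.06), with no overlap of libraries in any of these comparisons. It overlaps a gene on the opposite strand. The other 2 genes of the run that passed were low and scattered. CsaV3_4G023830 had 1.31 to 2.74 FPKM at 3 h, against 0.151 to 0.695 at 0 h, and was called higher at 3 h, though its adjusted p was 0.0547 without 0 h replicate 2 and 0.0662 without 3 h replicate 2. CsaV3_4G023820 had 0.317 to 1.55 FPKM at 12 h, against 1.21 to 3.58 at 0 h, and was called lower at 12 h with overlapping libraries. That call was at -1.74 ± 0.65, moved to -2.70 without 12 h replicate 1, and was lost without 0 h replicate 1 (adjusted p = 0.0929), 0 h replicate 3 (0.0811), 12 h replicate 2 (0.109) or 12 h replicate 3 (0.109), or by limma on log2(FPKM + 5) (0.0612). Neighbouring copies of a gene family may also share reads.

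A small gene named for a lipoxygenase homology domain, CsaV3_6G045550 (chromosome 6, 26982028 to 26983200), had the highest mean among the 13S- and other lipoxygenases. Its FPKM was 6.62, 6.57 and 7.88 at 0 h, 23.6, 22.2 and 20.5 at 3 h, 48.5, 54.4 and 48.7 at 12 h and 28.0, 30.7 and 39.4 at 24 h. The libraries of all 4 durations were separate, with the peak at 12 h. Against 0 h it changed on the log2 scale by 1.65 ± 0.13 (adjusted p = 6.30e-07, edgeR) at 3 h, 2.90 ± 0.13 (3.83e-09) at 12 h and 2.27 ± 0.13 (1.19e-08) at 24 h. The name denotes a lipid-associated domain and not the catalytic part of a lipoxygenase.

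The 9S-lipoxygenases, which oxygenate the other end of the fatty acid's double bonds, were led by 1 abundant gene that fell. The 9S-lipoxygenase 6-like gene CsaV3_2G006460 (chromosome 2, 3078063 to 3084948) had 85.5, 78.0 and 74.3 FPKM at 0 h, 34.5, 27.0 and 41.2 at 3 h, 23.4, 24.2 and 23.1 at 12 h and 37.3, 34.5 and 32.0 at 24 h. Every cold library was below every 0 h library, and the 12 h libraries were the lowest. The fold change on the log2 scale was -1.21 ± 0.13 (adjusted p = 8.11e-06, edgeR) at 3 h, -1.70 ± 0.13 (2.59e-07) at 12 h and -1.14 ± 0.13 (5.36e-06) at 24 h. The 9S-lipoxygenase 5 genes changed less. CsaV3_2G005370 rose to 14.0 ± 1.3 FPKM at 24 h against 10.2 ± 1.02 at 0 h. It overlaps 9S-lipoxygenase 5 CsaV3_2G005360 on the opposite strand, so its reads may be shared with that gene. CsaV3_6G038170 rose to 12.3 ± 0.522 FPKM at 12 h and fell to 5.39 ± 0.793 at 24 h, against 9.06 ± 0.252 at 0 h. CsaV3_2G005350 stayed between 3.25 and 4.74 FPKM in all 12 libraries and was not called in any comparison. The 3 h calls of CsaV3_2G005370 and CsaV3_6G038170 were small (0.25 ± 0.10 and 0.31 ± 0.10). They were lost without single libraries: CsaV3_2G005370 had adjusted p of 0.0621 and 0.168 without 0 h replicates 2 and 3, 0.093, 0.107 and 0.0657 without 3 h replicates 1, 2 and 3, and 0.0534 and 0.0501 without 12 h replicates 2 and 3, and CsaV3_6G038170 had 0.0561 without 3 h replicate 2. The 3 h call of CsaV3_2G005370 was also lost under the replicate block (0.06) and with no filter on low values (0.0512).

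A second 9S-lipoxygenase 6-like gene, CsaV3_2G006390, rested on 1 library. It had 0.604, 0.458 and 9.98 FPKM at 0 h, 0.127, 0.0531 and 0.0539 at 3 h, 0.311, 0.274 and 0.0342 at 12 h and 0.704, 1.85 and 1.08 at 24 h. Replicate 3 alone set the 0 h mean. The log2 fold change was -5.52 ± 1.23 at 3 h (adjusted p = 0.00225) and -4.09 ± 1.12 at 12 h (0.00625) by edgeR. Without 0 h replicate 3 it was -2.73 at 3 h (0.00827) and -1.30 at 12 h (0.114). By limma on log2(FPKM + 1) the 12 h call was lost (0.0666), and on log2(FPKM + 5) both were (0.0929 at 3 h and 0.101 at 12 h). The gene also overlaps another on the opposite strand.

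Both allene oxide synthase members were called at 12 h and 24 h, in opposite directions. This enzyme makes the first intermediate that is committed to jasmonate. Allene oxide synthase CsaV3_2G028330 (chromosome 2, 18669013 to 18670611) had 5.14, 3.77 and 4.63 FPKM at 0 h, 7.30, 5.45 and 4.81 at 3 h, 16.8, 21.9 and 16.9 at 12 h and 16.7, 17.0 and 12.6 at 24 h. The 3 h libraries overlapped the 0 h libraries (log2 fold change 0.37 ± 0.18, adjusted p = 0.099, edgeR), and the 12 h and 24 h libraries were above both. The rise was 2.09 ± 0.19 on the log2 scale at 12 h (9.58e-07) and 1.83 ± 0.19 at 24 h (2.09e-06). The allene oxide synthase-like gene CsaV3_7G010160 (chromosome 7, 5749198 to 5752040) had 17.4, 16.0 and 17.1 FPKM at 0 h, 9.55, 11 and 10.3 at 3 h, 7.69, 7.18 and 6.84 at 12 h and 6.67, 5.21 and 6.10 at 24 h. It fell at every duration, by log2 fold changes of -0.71 ± 0.10, -1.16 ± 0.10 and -1.43 ± 0.10 at 3, 12 and 24 h, with no overlap with 0 h. The gene that fell was thus the more abundant of them at 0 h, and the gene that rose was the more abundant at 12 h and 24 h, with no overlap between the genes' libraries at any of these durations. Their summed FPKM was 19.7 to 22.6 at 0 h, 15.1 to 16.8 at 3 h, 23.7 to 29.1 at 12 h and 18.7 to 23.4 at 24 h, so the sum was below all 0 h libraries at 3 h, above them at 12 h and overlapped them at 24 h.

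Allene oxide cyclase, which closes the ring of OPDA, rose in both of its members. Allene oxide cyclase 4-like CsaV3_5G039150 (chromosome 5, 30922118 to 30924921) had 8.84, 7.90 and 9.54 FPKM at 0 h, 16.3, 18.6 and 15.7 at 3 h, 23.9, 25.1 and 24.1 at 12 h and 34.8, 25.3 and 19.2 at 24 h. Cold libraries were all above the 0 h libraries. Its change (log2 fold) was 0.94 ± 0.17 (adjusted p = 5.01e-04, edgeR) at 3 h, 1.53 ± 0.17 (6.92e-06) at 12 h and 1.65 ± 0.17 (2.65e-06) at 24 h. Allene oxide cyclase 3 CsaV3_5G023060 (chromosome 5, 17182481 to 17184457) was lower, with 0.576, 0.278 and 0.495 FPKM at 0 h, 1.51, 1.47 and 0.664 at 3 h, 1.42, 3.00 and 0.872 at 12 h and 14.0, 4.80 and 3.89 at 24 h. All its cold libraries lay above the 0 h libraries, and the 24 h libraries were widely spread. It was not called at 3 h (1.42 ± 0.58, adjusted p = 0.0531, edgeR) and was called higher at 12 h (2.02 ± 0.58, 0.00857) and 24 h (4.12 ± 0.61, 6.26e-05). The 3 h value became a call without 3 h replicate 3 (0.0357), 12 h replicate 2 (0.0383), 12 h replicate 3 (0.0462), 24 h replicate 1 (0.0178) or 24 h replicate 3 (0.0356). By limma the 12 h call was lost on log2(FPKM + 1) (0.063) and log2(FPKM + 5) (0.256). Without 12 h replicate 2 the 12 h value was 1.39 (0.0529), and without 24 h replicate 1 the 24 h value was 3.32 (7.63e-05).

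The hydroperoxide lyase pair on chromosome 7, CsaV3_7G003410 and CsaV3_7G003420, lies on opposite strands with an overlap of 3484 bases, and reads of the genes cannot be told apart without strand. CsaV3_7G003410 (2536720 to 2545251) had 4.92, 4.92 and 4.86 FPKM at 0 h, 4.22, 5.09 and 4.55 at 3 h, 6.24, 6.25 and 6.97 at 12 h and 7.73, 7.79 and 7.94 at 24 h. It was called higher at 12 h (log2 fold change 0.46 ± 0.08) and 24 h (0.73 ± 0.08). CsaV3_7G003420 (2541768 to 2545251) had 5.78, 4.48 and 5.25 FPKM at 0 h, 6.51, 6.27 and 5.60 at 3 h, 9.60, 9.97 and 9.05 at 12 h and 3.56, 2.82 and 4.74 at 24 h. It was higher than at 0 h after 12 h (0.94 ± 0.16), and its call as lower after 24 h (-0.42 ± 0.16, adjusted p = 0.0317, edgeR) came with overlapping libraries. That 24 h call was lost without 0 h replicate 1 (0.112), 0 h replicate 3 (0.0697), 24 h replicate 1 (0.067) or 24 h replicate 2 (0.125), and when only the 24 h and 0 h groups were fitted (0.116).

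**Figure D2:**
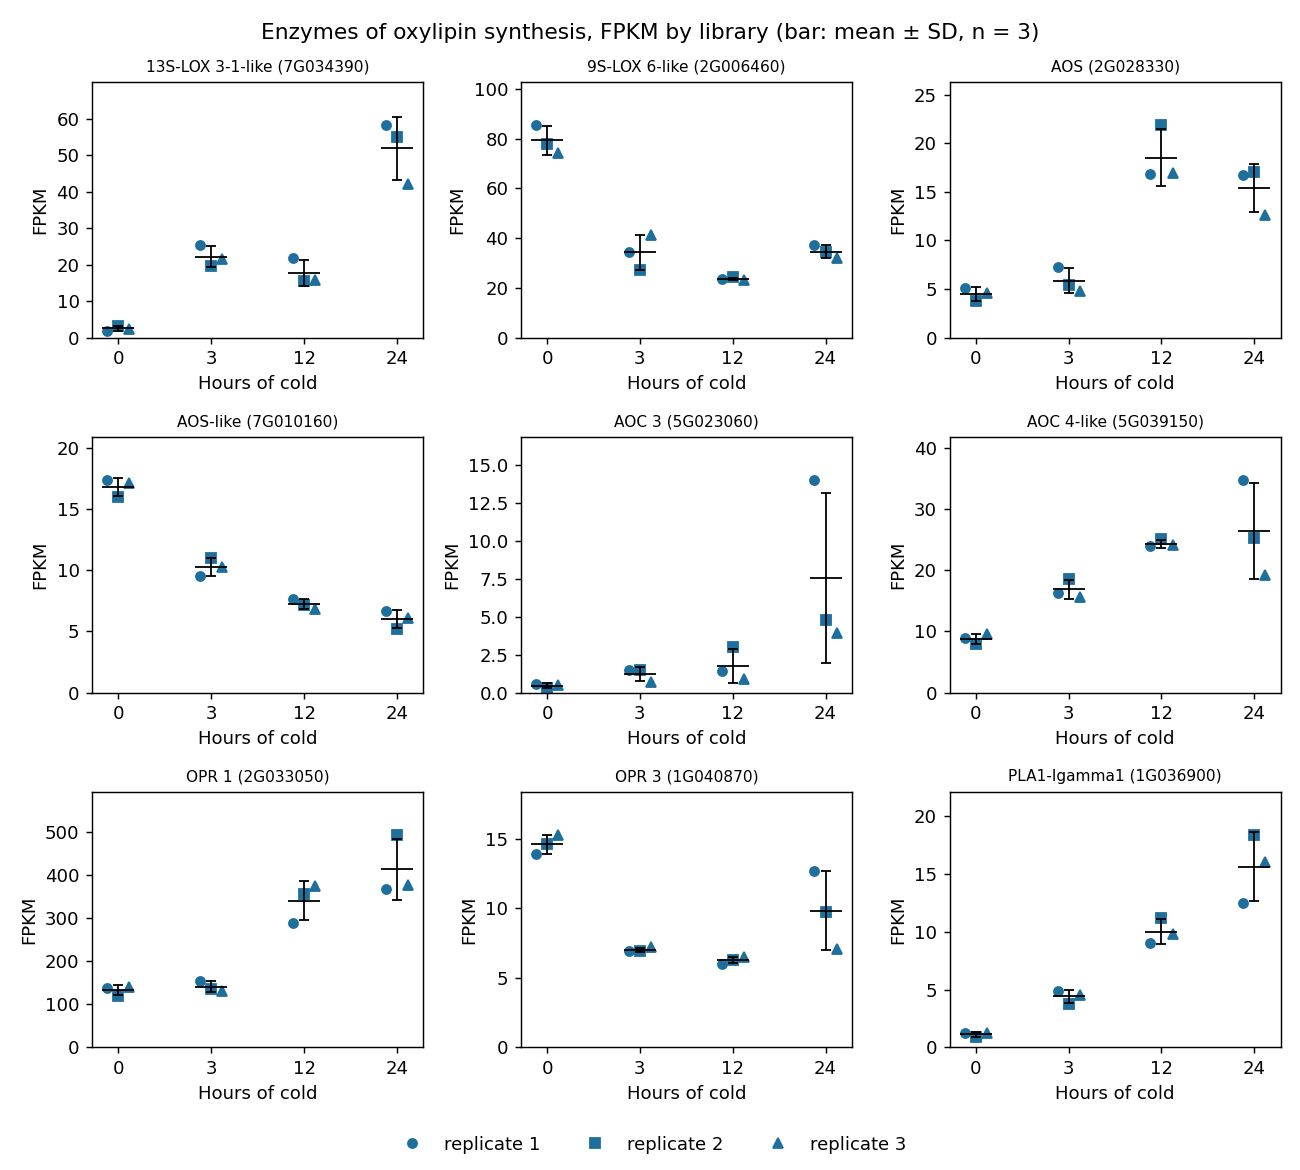
FPKM of 9 genes of oxylipin synthesis in each library after 0, 3, 12 and 24 h of cold (durations evenly spaced), with symbols for replicates 1 to 3 and bars for mean ± SD. The 13S-lipoxygenase 3-1-like, allene oxide cyclase and phospholipase genes lie higher in the cold libraries than at 0 h, whereas 9S-lipoxygenase 6-like, allene oxide synthase-like and oxophytodienoate reductase 3 lie lower.

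Oxophytodienoate reductases differed by gene, and the most abundant one rose while the one named for the jasmonate step fell. Oxophytodienoate reductase 1 CsaV3_2G033050 (chromosome 2, 21915213 to 21918154) was the most abundant member of any role, with 139, 120 and 141 FPKM at 0 h, 155, 136 and 132 at 3 h, 290, 356 and 376 at 12 h and 368, 494 and 378 at 24 h. The 0 h and 3 h libraries overlapped, as did the 12 h and 24 h libraries, with a gap between these sets. Relative to 0 h the log2 change was 0.08 ± 0.13 (adjusted p = 0.605, edgeR) at 3 h, 1.41 ± 0.13 (1.47e-06) at 12 h and 1.69 ± 0.13 (2.20e-07) at 24 h. Oxophytodienoate reductase 3 CsaV3_1G040870 (chromosome 1, 26047615 to 26053513) had 13.9, 14.6 and 15.3 FPKM at 0 h, 6.91, 6.95 and 7.20 at 3 h, 6.03, 6.31 and 6.48 at 12 h and 12.7, 9.76 and 7.05 at 24 h. In Arabidopsis the reductase of this name is the peroxisomal enzyme of jasmonate synthesis, whereas reductase 1 is not needed for it. All cold libraries were below the 0 h libraries, with log2 fold changes of -1.06 ± 0.16 (1.37e-04) at 3 h, -1.16 ± 0.16 (3.93e-05) at 12 h and -0.51 ± 0.16 (0.0108) at 24 h. The 24 h call was lost when only the 24 h and 0 h groups were fitted (-0.49, adjusted p = 0.0669, edgeR).

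The other 4 reductases were lower than reductase 1 at every duration. Oxophytodienoate reductase 2-like CsaV3_5G017240 rose at every duration, to 1.02 ± 0.278 FPKM at 3 h, 0.672 ± 0.141 at 12 h and 2.65 ± 1.05 at 24 h, against 0.143 ± 0.11 at 0 h, where about 11.3 fragments were counted over 3 libraries. Its 12 h call was lost by limma on log2(FPKM + 5) (adjusted p = 0.138). The 3 genes named oxophytodienoate reductase 11 are neighbours on chromosome 7 (4148594 to 4168714), and 2 of them fell at 24 h. CsaV3_7G006690 fell to 18.7 ± 3.95 FPKM at 24 h against 32.0 ± 2.31 at 0 h, and CsaV3_7G006680 to 1.95 ± 0.581 against 4.96 ± 0.538. CsaV3_7G006670 was called only at 12 h among the comparisons with 0 h, at 5.72 ± 0.694 FPKM against 3.51 ± 0.492. Its call was lost without 0 h replicate 2 (adjusted p = 0.0808), 0 h replicate 3 (0.086), 12 h replicate 1 (0.0636) or 12 h replicate 3 (0.0888).

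Jasmonate O-methyltransferase, which makes the volatile methyl jasmonate, was low throughout. CsaV3_3G045390 (chromosome 3, 37062534 to 37064406) had 0.497, 0.341 and 0.756 FPKM at 0 h, 1.06, 0.702 and 0.913 at 3 h, 0.64, 1.20 and 1.37 at 12 h and 1.86, 2.06 and 0.545 at 24 h. It was called higher at 24 h (log2 fold change 1.53 ± 0.48, adjusted p = 0.0125, edgeR) although 24 h replicate 3 lay within the range of the 0 h libraries. That call had an adjusted p of 0.0512 without 0 h replicate 2 and 0.0546 without 24 h replicate 2. In the test over the 3 cold durations together the gene was not called (adjusted p = 0.056, edgeR).

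COI1, the F-box subunit of the jasmonate receptor, was lower at 12 h and 24 h. CsaV3_5G008910 (chromosome 5, 5513162 to 5517503) had 48.2, 46.1 and 48.1 FPKM at 0 h, 46.0, 45.2 and 45.3 at 3 h, 29.4, 27.8 and 29.4 at 12 h and 29.1, 27.4 and 26.2 at 24 h. The levels formed a high set at 0 h and 3 h and a low set at 12 h and 24 h. The log2 fold change was -0.06 ± 0.06 (adjusted p = 0.391, edgeR) at 3 h, -0.66 ± 0.06 (8.30e-07) at 12 h and -0.73 ± 0.06 (2.61e-07) at 24 h.

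Both MYC2 genes, for the transcription factor that JAZ proteins restrain, changed at every duration, and from 12 h they moved in opposite directions. MYC2 CsaV3_3G049150 (chromosome 3, 40071324 to 40074834) had 70.4, 70.7 and 73.3 FPKM at 0 h, 41.5, 40.1 and 42.2 at 3 h, 30.6, 32.5 and 31.7 at 12 h and 16.1, 19.2 and 21.4 at 24 h. Libraries of the 4 durations did not overlap, and each was lower than the one before. Against 0 h it changed on the log2 scale by -0.79 ± 0.09 (adjusted p = 1.31e-05, edgeR) at 3 h, -1.12 ± 0.09 (3.57e-07) at 12 h and -1.86 ± 0.09 (3.25e-09) at 24 h. The MYC2-like gene CsaV3_3G001710 (chromosome 3, 1295970 to 1297898) had 22.4, 23.1 and 23.0 FPKM at 0 h, 20.1, 17.3 and 17.2 at 3 h, 49.3, 48.7 and 44.9 at 12 h and 81.2, 61.0 and 64.5 at 24 h. It was slightly lower at 3 h and higher at 12 h and 24 h, without overlap of libraries. The fold change on the log2 scale was -0.33 ± 0.10 (0.0164) at 3 h, 1.11 ± 0.10 (1.36e-06) at 12 h and 1.65 ± 0.10 (3.14e-08) at 24 h, and the 3 h call had an adjusted p of 0.0651 without 3 h replicate 2 and 0.0606 without 3 h replicate 3. At 0 h every library had more MYC2 than MYC2-like RNA per length, and at 12 h and 24 h every library had more MYC2-like. Their summed FPKM was 92.8 to 96.2 at 0 h, 57.4 to 61.6 at 3 h, 76.6 to 81.2 at 12 h and 80.3 to 97.3 at 24 h. The remaining MYC2-like gene, CsaV3_6G008940, reached at most 0.536 FPKM.

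**Figure D3:**
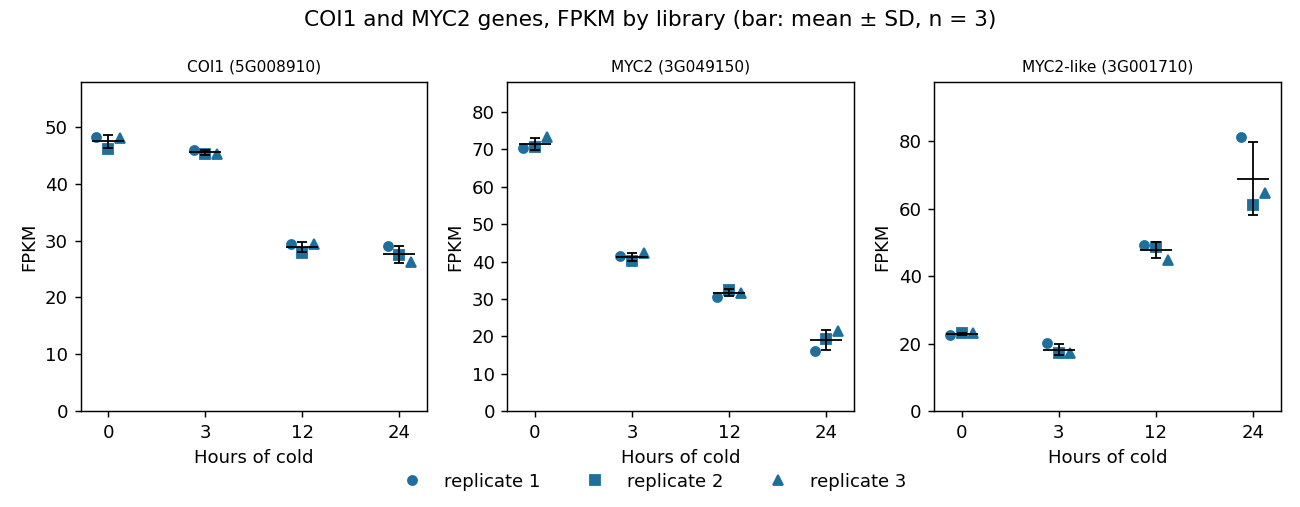
FPKM of COI1 and of both MYC2 genes in each library after 0, 3, 12 and 24 h of cold (durations evenly spaced), with symbols for replicates 1 to 3 and bars for mean ± SD. COI1 drops between 3 h and 12 h, MYC2 is lower at each later duration, and MYC2-like is highest at 24 h with 61.0 to 81.2 FPKM.

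The TIFY genes made up the largest role after the 13S- and other lipoxygenases by matched genes, and the largest by genes that passed. At 3 h 3 of the 11 rose and 1 fell (29.4% of all genes rose and 28.3% fell), at 12 h 6 rose and 3 fell (34.4% and 33.0%), and at 24 h 7 rose and 3 fell (36.2% and 37.9%). Their summed FPKM was 211 to 223 at 0 h, 234 to 242 at 3 h, 266 to 284 at 12 h and 443 to 508 at 24 h, where TIFY 11A alone had 176 to 209. TIFY 11A CsaV3_3G030830 (chromosome 3, 26612238 to 26613597) had 7.68, 7.73 and 8.60 FPKM at 0 h, 40.6, 34.6 and 26.9 at 3 h, 30.1, 30.2 and 26.4 at 12 h and 176, 209 and 191 at 24 h. The 3 h and 12 h libraries overlapped between a low 0 h set and a high 24 h set. It changed by 2.08 ± 0.13 (log2 scale, adjusted p = 1.32e-07, edgeR) at 3 h, 1.9 ± 0.13 (1.11e-07) at 12 h and 4.64 ± 0.15 (1.10e-10) at 24 h. At 24 h it was the most abundant TIFY gene in every library.

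TIFY 5A-like CsaV3_1G032370 (chromosome 1, 19339309 to 19340869) was near 0 in unchilled leaves, with 0.0395, 0.256 and 0.0818 FPKM at 0 h, 1.40, 0.703 and 0.368 at 3 h, 1.29, 1.20 and 0.346 at 12 h and 10.8, 14.0 and 12.5 at 24 h. All cold libraries were above all 0 h libraries. The 0 h level rests on about 10.8 fragments over 3 libraries, so the size of its fold changes is uncertain. The log2 fold change was 2.65 ± 0.66 (adjusted p = 0.00457, edgeR) at 3 h, 2.90 ± 0.66 (0.00186) at 12 h and 6.62 ± 0.69 (2.79e-06) at 24 h. Without 0 h replicate 2 these were 3.62, 3.88 and 7.59, and without 3 h replicate 1 the 3 h value was 2.03. The 3 h call was lost by limma on log2(FPKM + 5) (0.0912). TIFY 9-like CsaV3_6G007840 (chromosome 6, 6289027 to 6292050) had 6.40, 7.40 and 4.73 FPKM at 0 h, 6.35, 10.7 and 6.33 at 3 h, 11.4, 7.96 and 10.3 at 12 h and 50.5, 39.0 and 26.8 at 24 h. The 24 h libraries stood apart from the rest (2.71 ± 0.28, adjusted p = 2.45e-06, edgeR). Its smaller call at 12 h (0.73 ± 0.27) had an adjusted p of 0.0596 without 0 h replicate 1, 0.114 without 0 h replicate 3, 0.0939 without 12 h replicate 1, 0.0722 without 12 h replicate 3 and 0.0746 by limma on log2(FPKM + 5).

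TIFY 10A CsaV3_1G041270 was called at 24 h alone among the comparisons with 0 h, at 68.3, 32.3 and 15.7 FPKM against 10.7, 8.89 and 8.68 at 0 h. Its log2 fold change of 2.10 ± 0.38 (adjusted p = 3.11e-04, edgeR) was 1.41 without 24 h replicate 1. Its 3 h value (0.70 ± 0.37, 0.124) became a call without 24 h replicate 1 (0.0121) or 24 h replicate 3 (0.0134). TIFY 5A CsaV3_6G051810 passed the filter through its 24 h libraries alone, at 8.52, 2.61 and 1.19 FPKM against 0.17, 0 and 0.19 at 0 h, and its log2 fold change of 5.06 ± 0.99 was 3.95 without 24 h replicate 1. TIFY 6B CsaV3_1G007260 peaked at 12 h with 50.5 ± 4.1 FPKM and had 36.1 ± 1.58 at 24 h, against 15.6 ± 1.39 at 0 h, and both rises were called (1.75 ± 0.08 and 1.27 ± 0.08). One of a pair of TIFY 8-like genes, CsaV3_3G046630, also rose, to 8.11 ± 3.02 FPKM at 24 h against 3.10 ± 0.32 at 0 h.

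The other TIFY 8-like gene, CsaV3_2G031660, fell at every duration, with 29.1 to 30 FPKM at 0 h, 19.7 to 20.9 at 3 h, 11 to 12.2 at 12 h and 11.5 to 12.4 at 24 h. TIFY 10B-like CsaV3_7G034270 fell to 9.66 ± 0.0525 FPKM at 12 h and 15.7 ± 3.5 at 24 h, against 22.9 ± 3.19 at 0 h. Its 24 h call was lost when only the 24 h and 0 h groups were fitted (-0.46, adjusted p = 0.0591, edgeR). TIFY 4B, whose Arabidopsis namesake is a PEAPOD protein that restrains leaf growth, was called in both directions: CsaV3_2G013410 had 10.7 ± 0.0589 FPKM at 3 h (higher), 5.66 ± 0.633 at 12 h (lower) and 5.70 ± 0.413 at 24 h (lower), against 7.76 ± 0.597 at 0 h. The most abundant TIFY gene over the 12 libraries was among those with the smallest change. TIFY 6B-like CsaV3_5G037080 (chromosome 5, 29302705 to 29306628) had 115, 109 and 113 FPKM at 0 h, 112, 111 and 120 at 3 h, 137, 133 and 137 at 12 h and 115, 117 and 120 at 24 h. It was called higher at 12 h (0.33 ± 0.06, adjusted p = 2.38e-04, edgeR) but not at 3 h (0.02 ± 0.06, 0.757) or 24 h (0.12 ± 0.06, 0.0753).

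**Figure D4:**
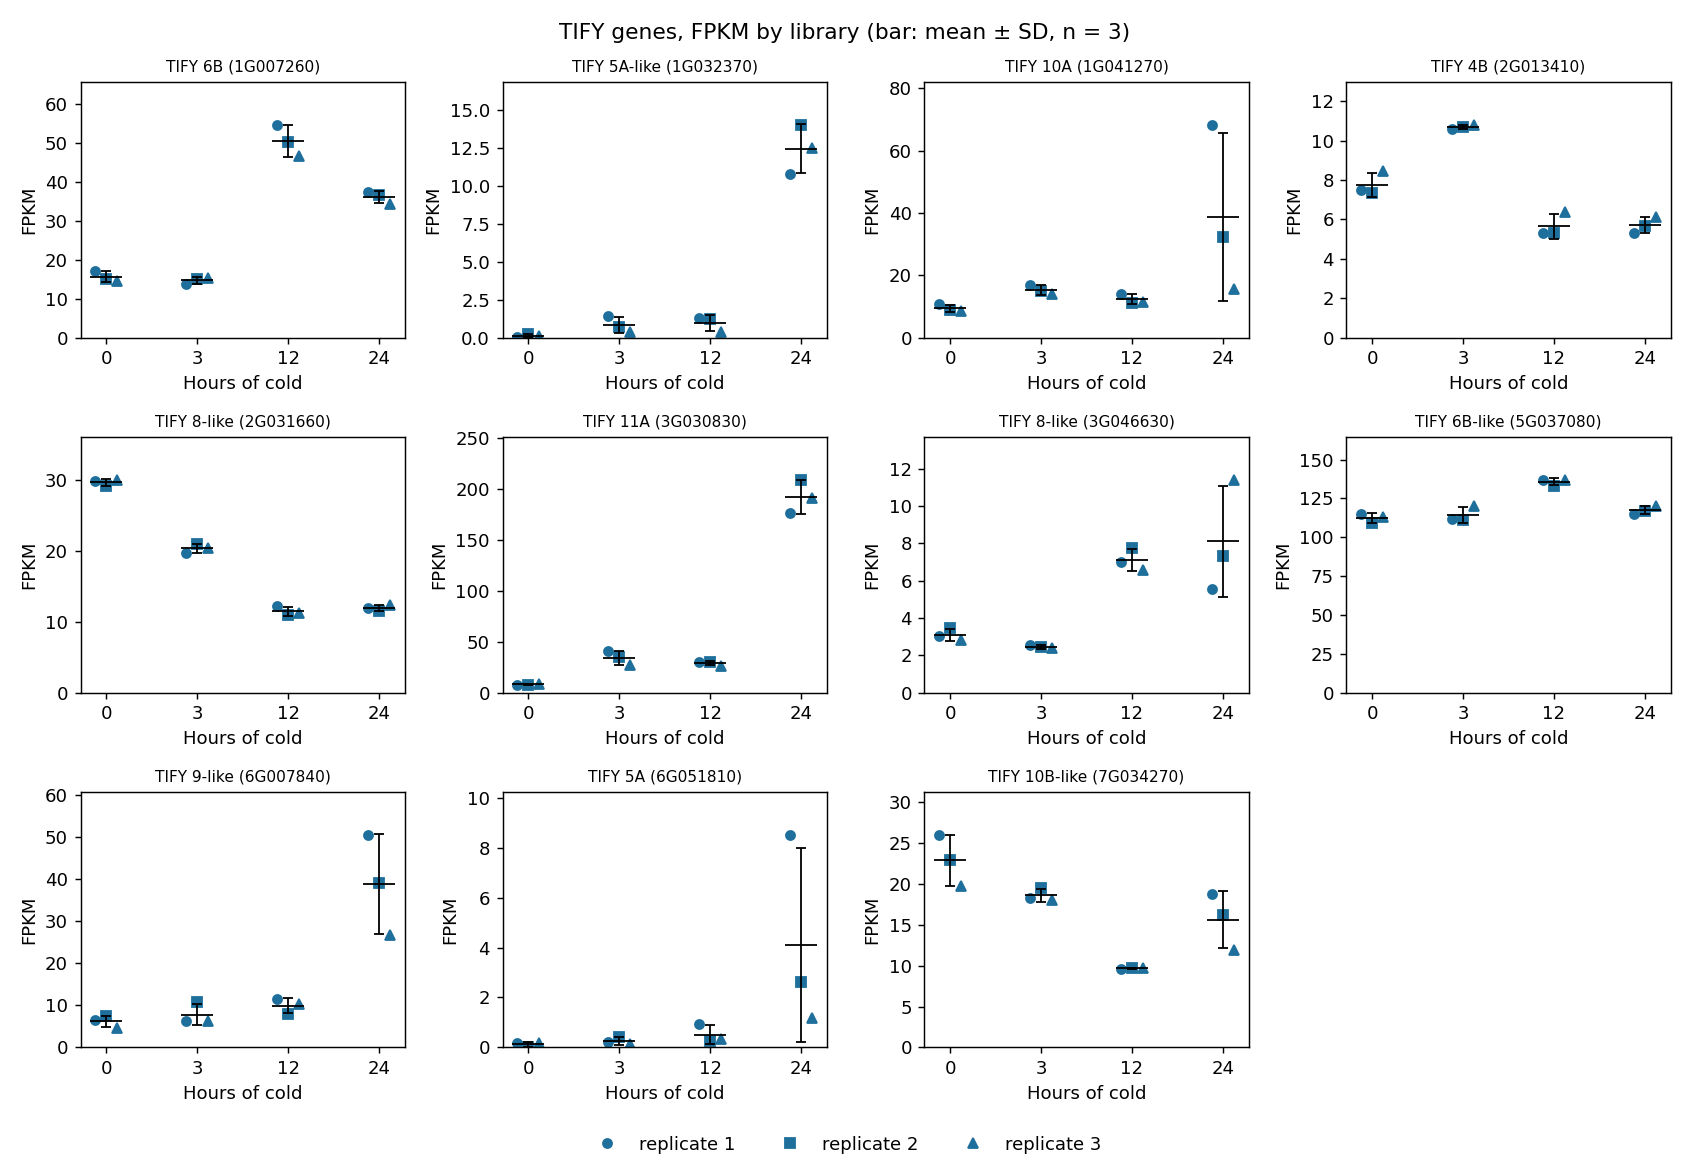
FPKM of the 11 TIFY genes that passed the filter in each library after 0, 3, 12 and 24 h of cold (durations evenly spaced), with symbols for replicates 1 to 3 and bars for mean ± SD. TIFY 11A reaches 176 to 209 FPKM at 24 h, TIFY 10A and TIFY 5A are widely spread at 24 h, and TIFY 8-like (2G031660) lies lower in all cold libraries than at 0 h.

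Neighbouring cold durations were also compared with each other. From 3 h to 12 h 15 members rose and 10 fell, where 55.5% of all genes were called (27.9% higher and 27.6% lower). Oxophytodienoate reductase 1 (1.33 ± 0.13), allene oxide synthase CsaV3_2G028330 (1.72 ± 0.18), TIFY 6B (1.83 ± 0.09) and MYC2-like (1.44 ± 0.10) rose in this step on the log2 scale, and COI1 fell (-0.60 ± 0.06). From 12 h to 24 h 17 members rose and 11 fell, where 51.9% of all genes were called (24.5% higher and 27.4% lower). TIFY 11A (2.73 ± 0.13), 13S-lipoxygenase 3-1-like (1.56 ± 0.20) and TIFY 9-like (1.98 ± 0.27) rose in this step, and MYC2 fell (-0.74 ± 0.09). COI1 (-0.06 ± 0.06), allene oxide synthase (-0.26 ± 0.18), allene oxide cyclase 4-like (0.12 ± 0.17) and oxophytodienoate reductase 1 (0.28 ± 0.13) were not called between 12 h and 24 h, each with overlapping libraries. Without 24 h replicate 1 oxophytodienoate reductase 1 was called in this step (0.36, adjusted p = 0.0431, edgeR).

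The 24 h libraries varied more than the others, in these genes as in the rest. The median coefficient of variation over the 43 members was 10.6%, 9.54%, 10.0% and 19.2% at 0, 3, 12 and 24 h, and over all genes tested it was 8.05%, 8.05%, 8.04% and 14.7%. Replicate 1 of the 24 h group had at least 2 times the FPKM of replicate 3 in 5 of 43 members (11.6%), namely TIFY 10A, TIFY 5A, allene oxide cyclase 3, lipoxygenase 6 and jasmonate O-methyltransferase, which were named after their values were seen. The share over all genes tested was 6.68%. All 5 were still called at 24 h against 0 h without replicate 1, lipoxygenase 6 as lower and the others as higher.

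Other genes of the pathway were matched by description and are not members. Of 66 that passed the filter 13 rose and 24 fell at 3 h, 18 rose and 30 fell at 12 h, and 25 rose and 25 fell at 24 h. Over all genes tested 29.4% rose and 28.3% fell at 3 h, 34.4% and 33.0% at 12 h, and 36.2% and 37.9% at 24 h, and each group that follows holds few genes. Peroxisomal beta-oxidation, which shortens the OPDA side chain, had 1 rise and 5 falls at 3 h, 0 rises and 5 falls at 12 h, and 4 rises and 1 fall at 24 h among 9 genes. Genes named for the Ninja and Topless families, which include JAZ co-repressors, had 2 rises and 7 falls at 3 h, 3 and 6 at 12 h, and 3 and 6 at 24 h among 10 genes. The genes named from here on were chosen after their values were seen. Ninja-family protein 6-like CsaV3_1G006020 fell to 75.1 ± 4.3 FPKM at 3 h, 39.4 ± 2.65 at 12 h and 26.8 ± 3.41 at 24 h, against 131 ± 4.85 at 0 h. A ninja-family protein AFP3-like gene, CsaV3_3G030080, rose at every duration, most at 12 h (49.8 ± 0.921 FPKM) against 2.49 ± 0.632 at 0 h. Another gene of the same description, CsaV3_5G033350, was more abundant at 0 h and fell at every duration. Its mean was 161 FPKM at 0 h, 66.8 at 3 h, 41.2 at 12 h and 41.7 at 24 h. In Arabidopsis proteins of the AFP name act in abscisic acid signalling.

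The omega-3 desaturases, which make linolenic acid, had 2 rises at 3 h of 2 genes. The endoplasmic reticulum form CsaV3_1G036250 rose to 133 ± 12.7 FPKM at 3 h, 104 ± 1.45 at 12 h and 67.2 ± 13.1 at 24 h, against 36.3 ± 1.58 at 0 h. The other, CsaV3_5G010230, rose to 409 ± 26.3 FPKM at 3 h and fell to 176 ± 16.7 at 24 h, against 288 ± 9.79 at 0 h. Further oxylipin enzymes (peroxygenases, epoxide hydrolases and alpha-dioxygenases) had 4 rises and 3 falls at 3 h, 4 and 5 at 12 h, and 4 and 3 at 24 h among 13 genes. Epoxide hydrolase 2-like CsaV3_4G000930 rose to 7.44 ± 2.8 FPKM at 3 h, 34.6 ± 5.2 at 12 h and 66.8 ± 24.7 at 24 h, against 3.53 ± 0.208 at 0 h. Alpha-dioxygenase 1 CsaV3_3G042140, which oxygenates fatty acids at the carbon next to the acid group, rose to 6.52 ± 1.87 FPKM at 24 h against 0.158 ± 0.0479 at 0 h. Epoxide hydrolase 4-like CsaV3_6G031890 fell to 16.6 ± 1.45 FPKM at 24 h against 106 ± 8.31 at 0 h.

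In the remaining groups the counts at 24 h were 4 rises and 2 falls among 6 genes of the 4-coumarate-CoA ligase-like family, which includes the ligase for OPDA products in Arabidopsis, and 2 and 3 among 6 subunits of the SCF ubiquitin ligase. SKP1-like protein 1B CsaV3_2G024370, of that ligase, fell to 281 ± 10.8 FPKM at 3 h, 321 ± 10.4 at 12 h and 280 ± 55.8 at 24 h, against 589 ± 12.7 at 0 h. Of the ABC transporters of the D family, member 1 CsaV3_4G008940, whose Arabidopsis counterpart imports jasmonate precursors into the peroxisome, rose at every duration, to 15.2 ± 1.58 FPKM at 24 h against 11.9 ± 0.565 at 0 h. Member 2 CsaV3_6G013300, described as chloroplastic, fell at 12 h and 24 h. Mediator subunit 25 CsaV3_5G034050, a partner of MYC2 in Arabidopsis, was lower at 12 h (-0.32 ± 0.11, adjusted p = 0.0233, edgeR) and higher at 24 h (0.76 ± 0.11, 5.53e-05). Cytochrome P450 94 genes, of a family that includes enzymes oxidising the active jasmonate, had 1 rise and 0 falls at 3 h among 2 genes. The counts were 1 and 1 at 12 h and 0 and 2 at 24 h. These genes are described as 94A1-like and 94A2-like, and whether their products act on jasmonate was not tested. CsaV3_3G039940 of this family rose to 42.2 ± 4.1 FPKM at 3 h and fell to 12.5 ± 0.509 at 24 h, against 18.3 ± 2.46 at 0 h. The IAA-amino acid hydrolases had 1 rise and 2 falls among 4 at 24 h. Genes of kinds known in other species for the wound response had 3 rises and 4 falls among 10 at 24 h. They had 1 rise and 4 falls at 3 h, and again at 12 h. Those tested were proteinase inhibitors (mainly of cysteine proteinases), defensins and a threonine dehydratase. Terpene synthases matched 6 genes and none passed the filter, with a summed level of at most 0.175 FPKM in any library. The lipase pattern DAD1 matched 1 tested gene, a subunit of an oligosaccharide transferase and not a lipase, and it is counted in the totals only.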

How the data were processed

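RNA of COS-sprayed cucumber leaves was sequenced in 12 libraries, 3 at each of 4 cold durations, grouped by the labels. The submitters' processing notes name cutadapt 1.9 and FastQC, and HISAT2 mapping to a cucumber genome is stated in the series design text. Counter, genome build, annotation and strandedness: not given in the sources used here. Estimated counts per gene were deposited by the authors as whole numbers. Their low values lie near multiples of 3.72, so a unit is not a fragment. FPKM values stand beside them in the authors' table, per the file headers, where 0.0001 takes the place of each of 61048 counts of 0 and was read as 0.

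Genes that reached 1 FPKM in 3 or more libraries (16432 genes, 99.84% of the counts) were fitted together with edgeR 4.0.16 in R 4.3.3, by TMM scaling and the quasi-likelihood test, with 1 mean for each duration and without a replicate block. Tests were two-sided and adjusted by Benjamini-Hochberg within a comparison. The biological coefficient of variation was 17.2%. The design allowed for counts or FPKM, and the edgeR test was used because the table holds estimated counts. The procedure was tested on counts simulated for the comparison of 3 h with 0 h. Far fewer genes were changed in them than were called in the data, and all groups had the same spread. That test therefore does not cover the other comparisons. The members, lists and roles were chosen with earlier results of these data known.

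Genes given with all libraries were, for each of the 3 comparisons with 0 h, the 6 called members with the largest change in log2(FPKM + 1) and 5 FPKM or more on average in the higher group, the most abundant member of each role, and every member of a role with at most 2, which made 20 genes. Others with library values were chosen after these were seen. Same-numbered replicates did not deviate together: 18 correlations of deviations lay between -0.12 and 0.14, with 2 over 0.1. Alternatives were DESeq2 1.42.0, limma 3.58.1, other scalings and filters, the replicate block and leaving out each library. Unadjusted p, counts divided by the spacing and a fit of only the groups compared were also used. No sequence was used here. Figures were made in Python 3.11.15 with matplotlib 3.10.9.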

Additional observations from a re-analysis of the deposited data

How the results depend on the processing

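Over 25 alternative settings 5146 of 5295 values (215 changes of single members and comparisons) kept their side of the threshold. Of the rest 93 were no longer called and 56 became called. Part of this agreement was fixed in advance. Unadjusted p, which was among the settings, cannot lose a call, and leaving out a library outside the groups compared hardly moves a fold change. No call changed direction, whereas 38 values that were not called changed sign, and 118 of 146 calls held under every alternative. With a mean of at least 5 FPKM only 27 members were tested, so fewer were called: 17 between 24 h and 12 h, in place of 28, and 27 over any cold duration, in place of 41. Leaving out 1 library gave 17 to 25 calls at 3 h (21 with all libraries), 31 to 37 at 12 h (35) and 33 to 37 at 24 h (37) against 0 h, 22 to 26 between 12 h and 3 h (25), 26 to 29 between 24 h and 12 h (28), and 39 to 42 over any duration (41). With the replicate block the counts were 21, 35 and 37 at 3, 12 and 24 h, 24 between 12 h and 3 h, 28 between 24 h and 12 h and 41 over any duration; the numbers mark no known pairing. Upper-quartile scaling placed the median of all genes at 24 h at -0.14 on the log2 scale, and called 22 members higher and 15 lower there, as TMM did. Depth limits the genes below 1 FPKM at 0 h, whose fold changes rest on few fragments.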
